A study of Homo sapiens with 4 samples.

Results

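Expression of 38 genes encoding components of the PI3K, AKT and mTOR pathway was compared between control and NRP-1 cultures of BT-474, out of 18882 gene identifiers listed in the libraries. The 38 genes were chosen by symbol, for their place in the pathway and with earlier results of these data known, and each was found through its NCBI Gene identifier. BT-474 is a human breast cancer cell line, labelled luminal B-like, and the control libraries were labelled wild-type. The BT-474 NRP-1 cells stably overexpressed neuropilin-1 (NRP-1, gene NRP1), a co-receptor for semaphorins and vascular endothelial growth factors, from a plasmid and were kept under Geneticin selection. Both groups were grown in RPMI medium with fetal bovine serum, and no drug treatment was labelled. mRNA was sequenced from 2 libraries per group, control replicates 1 and 2 and NRP-1 replicates 2 and 3. The control cells were not labelled as carrying an empty plasmid, so NRP-1 overexpression, plasmid, selection and isolation of clones cannot be told apart here. How many clones stand behind the NRP-1 libraries was not given in the sources used here. Nothing in the labels said that the 2 libraries of a group came from separate cultures. The p-values rest on the spread between libraries, pooled over both groups and moderated across genes, and this spread may be technical.

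Class I PI3K (phosphoinositide 3-kinase) is a lipid kinase made of a catalytic and a regulatory subunit, which is recruited to activated receptors directly or through IRS adaptors. The lipid it makes at the membrane recruits AKT, which is phosphorylated there by PDK1 (gene PDPK1) and by mTOR complex 2, and lipid and AKT phosphatases oppose these steps. AKT phosphorylates TSC2, GSK3 and the FOXO transcription factors, and RHEB, released from inhibition by the TSC complex, activates mTOR complex 1 (mTORC1), which controls protein synthesis through S6 kinases and 4E-BP1. The pathway is among the most often altered in breast cancer, and much of it is regulated by phosphorylation, which RNA sequencing does not measure.

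The deposited expected counts summed to between 8243595 and 8448926 reads per library. The targeted gene, NRP1, held 7 and 8 reads in control against 103 and 62 in NRP-1 replicates 2 and 3, so it followed the labels. All 8 luminal epithelial markers were above 1 FPKM (a read level scaled to transcript length and to the mapped total) in every library, whereas none of the 4 endothelial and none of the 4 leukocyte markers was, and TEK and 3 of the 4 leukocyte markers were at 0. Summed endothelial markers lay between 0.79 and 1.22 FPKM in control and between 1.55 and 1.97 FPKM in NRP-1 libraries, and summed leukocyte markers between 0.82 and 1.24 FPKM and between 0.73 and 1.38 FPKM. Of 6 fibroblast markers, COL1A1 alone was above 1 FPKM in every library, while DCN and PDGFRB were at 0, and their sum ranged from 35.0 to 35.3 FPKM in control and from 27.0 to 30.1 FPKM in NRP-1 libraries. The part of these markers in the results below was not tested. The NRP-1 libraries were farther apart than the control libraries, their biological coefficient of variation being 0.225 and that of the controls 0.0641, and the median absolute log2 ratio between the libraries of a group, over the 38 genes, was 0.10 in control and 0.26 in NRP-1.

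All 38 genes passed the filter on low counts. None of them passed an adjusted p of 0.05 in the quasi-likelihood test of edgeR, adjusted by Benjamini-Hochberg over 14298 genes, where 1.09% of all genes did (0.413% higher and 0.678% lower in NRP-1). Because the 38 genes were chosen with earlier results of these data known, their shares beside those of all genes are only a description. An unadjusted p below 0.05 was reached by 14 of the 38 genes (36.8%), against 22.9% of all genes. Of these, 6 were higher in NRP-1 cells (PIK3CA, PIK3C2B, INPP4B, PHLPP2, AKT1 and GSK3A), where 10.8% of all genes were, and 8 were lower (PIK3R1, INPP5D, DEPTOR, FOXO1, FOXO3, FOXO4, IRS2 and IGF1R), where 12.1% were. The log2 fold changes ranged from -2.06 for IRS2 to 0.82 for PIK3CA, with a median of 0.08 against 0.02 over all genes. They were positive for 23 of the 38 genes and negative for 15, where 51.8% of all genes had a positive one. The 2 NRP-1 libraries both lay above the 2 control libraries for 12 of the 38 genes (31.6%, all genes 27.9%) and both below for 13 (34.2%, all genes 28.3%), and for the other 13 the groups overlapped. DESeq2 called 4 of the 38 at an adjusted p below 0.05, where it called 6.36% of all genes. DEPTOR (adjusted p = 2.37e-06) and IRS2 (0.00104) were lower and AKT1 (0.0097) and PHLPP2 (0.0364) higher. limma on log2 FPKM called none of them. Without NRP-1 replicate 2, edgeR called 20 of the 38 genes, and without NRP-1 replicate 3 it called 21, in fits where 36.8% and 28.2% of all genes were called and a lone NRP-1 library was assumed to vary like the controls. With either control library left out it called none.

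**Figure D1:**
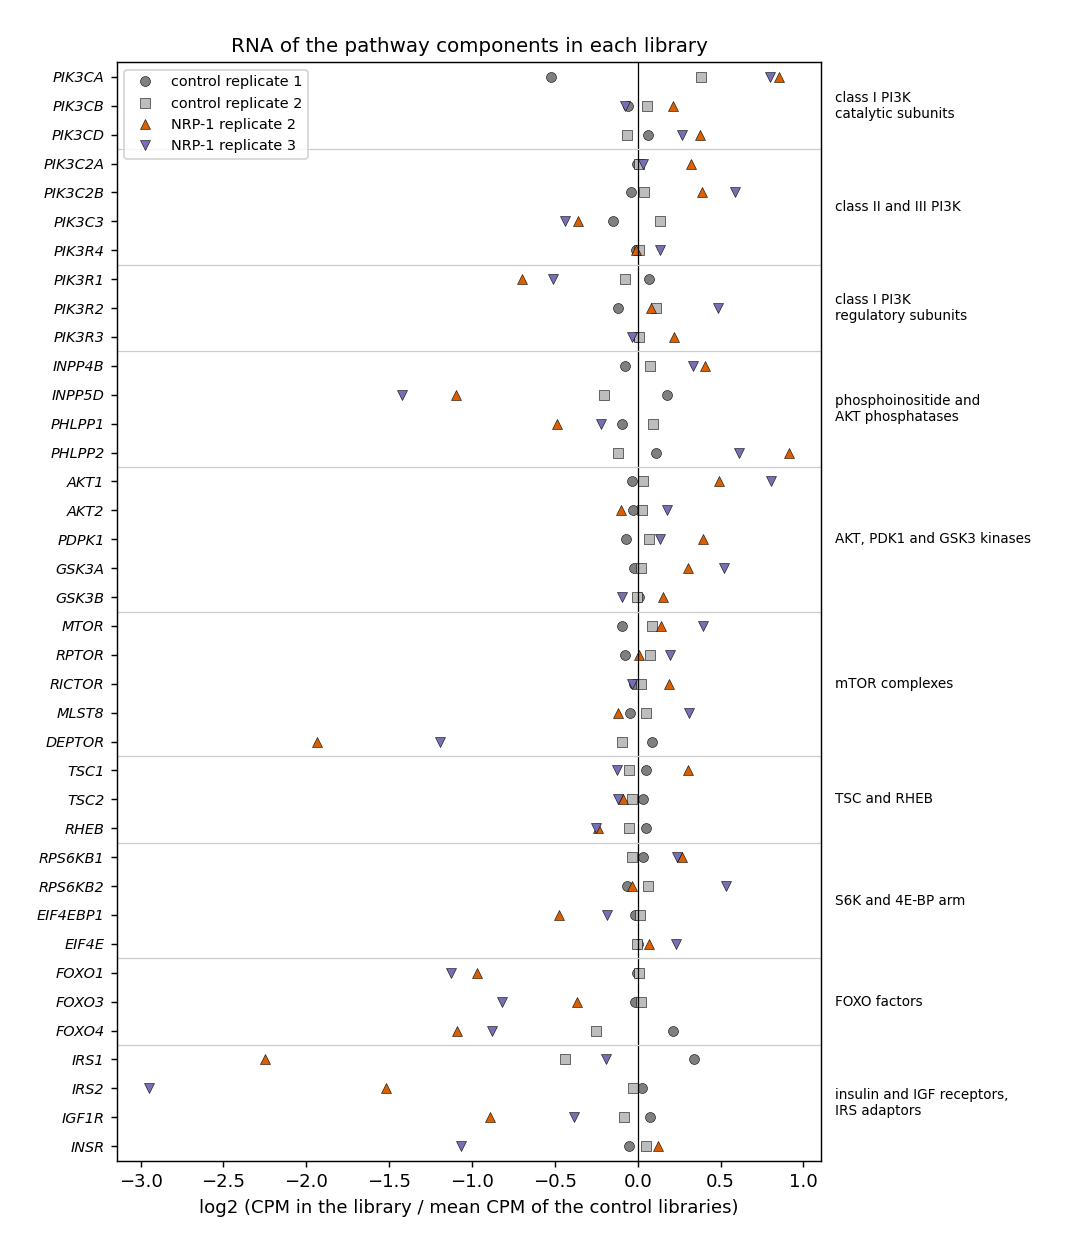
Level of each of the 38 genes in each library, as the log2 ratio of its CPM (reads scaled to the library total, after TMM) to the mean CPM of the control libraries. Circles and squares are control replicates 1 and 2, triangles pointing up and down NRP-1 replicates 2 and 3. The lowest points are those of IRS2, DEPTOR and IRS1, and the 2 NRP-1 points of IRS1, IRS2 and INSR lie far apart.

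The insulin and IGF receptors and the IRS adaptors that link them to PI3K all had negative log2 fold changes (51.8% of all genes were positive). Of these 4 genes, 2 were separate between the groups and lower (all genes 28.3%). IRS2, an adaptor whose transcription is known to be raised by FOXO factors, held 142 and 139 reads in control and 51 and 19 in NRP-1 libraries. Both NRP-1 libraries lay below both controls, but they also differed from each other by a log2 ratio of -1.43. The level was 2.40 ± 0.0495 FPKM in control and 0.590 ± 0.382 FPKM in NRP-1 cells (SD, n = 2 each). With all libraries this is a 4.17-fold difference, a log2 fold change of -2.06 with a standard error of 0.43 and a 95% interval of -3.10 to -1.02 (edgeR adjusted p = 0.0745). Without NRP-1 replicate 2 the log2 fold change of IRS2 was -2.95, and without replicate 3 it was -1.52, where that of IRS1 (-2.24) was the lowest of the 38 genes. IGF1R, the receptor for insulin-like growth factors, held 1018 and 920 reads in control and 544 and 772 in NRP-1 libraries. It was lower in both NRP-1 libraries, by a log2 fold change of -0.62 with a standard error of 0.19 (edgeR adjusted p = 0.138). IRS1, the other adaptor, held 137 and 81 reads in control and 24 and 100 in NRP-1 libraries. The NRP-1 libraries here lay on opposite sides of control replicate 2. INSR, the insulin receptor, held 424 and 460 reads in control and 500 and 220 in NRP-1 libraries, so that NRP-1 replicate 2 was above and replicate 3 below both controls. NRP-1 replicate 3 relative to replicate 2 had a log2 ratio of 2.06 for IRS1, -1.43 for IRS2 and -1.19 for INSR, the largest gaps within a group among the 38 genes.

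The stretches upstream of the start sites of IRS2, PIK3CA and AKT1 are shown because these genes had the lowest log2 fold change, the highest log2 fold change and the highest level of the 38 with all libraries. The bases are the 250 upstream of the RefSeq start, from assembly GRCh38.p14, written 5′ to 3′ on the strand of the gene. Capitals mark letters of the forkhead motif that FOXO factors are known to bind, searched as GTAAACA and as AAACAA on both strands, where overlapping matches of both were kept. IRS2 lies on the minus strand at chr13:109786584-109786833 and held 1 match, to AAACAA on the opposite strand. PIK3CA lies on the plus strand at chr3:179148107-179148356 and held 4 matches, of which 3 overlap each other in the first run of capitals. AKT1 lies on the minus strand at chr14:104795749-104795998 and held none, and no window searched for AKT1 held a match. For each gene the window shown is that of the first start site listed.
IRS2: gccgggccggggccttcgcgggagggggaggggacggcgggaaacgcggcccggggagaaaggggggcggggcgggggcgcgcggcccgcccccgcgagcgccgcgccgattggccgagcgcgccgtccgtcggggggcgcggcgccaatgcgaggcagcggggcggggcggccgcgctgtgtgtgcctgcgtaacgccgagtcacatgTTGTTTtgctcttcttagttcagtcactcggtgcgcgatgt
PIK3CA: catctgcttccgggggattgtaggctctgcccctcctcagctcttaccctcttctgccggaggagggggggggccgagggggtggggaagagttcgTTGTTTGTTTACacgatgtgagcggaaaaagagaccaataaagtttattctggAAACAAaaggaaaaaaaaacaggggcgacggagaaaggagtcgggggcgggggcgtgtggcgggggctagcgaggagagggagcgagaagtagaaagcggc
AKT1: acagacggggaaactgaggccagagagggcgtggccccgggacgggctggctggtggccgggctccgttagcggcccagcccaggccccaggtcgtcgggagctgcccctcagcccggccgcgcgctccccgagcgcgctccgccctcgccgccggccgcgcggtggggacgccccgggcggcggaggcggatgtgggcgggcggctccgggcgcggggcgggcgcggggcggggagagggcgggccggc
Among the 35 of the 38 genes with a window, GTAAACA was in 1 of 57 windows, that of PIK3CA, and in 2.98% of 35116 windows of the same length over all genes. AAACAA was in 9 of the 57 windows, of 8 genes (FOXO3, GSK3B, IRS2, PIK3C3, PIK3CA, PIK3CD, PIK3R3 and RHEB), and in 15.9% of all windows. A match describes letters in the window and not a bound site.

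Among the class I PI3K catalytic subunits, all 3 log2 fold changes were positive (all genes 51.8%). That of PIK3CA was the highest of the 38 genes with all libraries. PIK3CA, which encodes the alpha isoform often mutated in breast cancer, held 64 and 122 reads in control and 174 and 168 in NRP-1 libraries. Both NRP-1 libraries were higher, and the control libraries differed from each other by a log2 ratio of 0.91. The level was 3.0 ± 1.31 FPKM in control and 5.42 ± 0.156 FPKM in NRP-1 cells (SD, n = 2 each), a log2 fold change of 0.82 with a standard error of 0.31 (edgeR adjusted p = 0.196). It was 0.43 without control replicate 1, 1.35 without control replicate 2, and 0.78 or 0.85 on leaving out NRP-1 replicate 2 or 3. The highest of the 38 was PHLPP2 when control replicate 1 (0.88) or NRP-1 replicate 3 (0.91) was left out, and AKT1 when NRP-1 replicate 2 was (0.79). By western blot, the paper saw a decrease of the alpha catalytic subunit protein in BT-474 NRP-1 cells. The PIK3CA RNA here differed in the other direction and was not called with all libraries. PIK3CB, the beta isoform, was the most abundant of the 3 and held 459 and 505 reads in control and 580 and 475 in NRP-1 libraries, which overlapped. PIK3CD, the delta isoform best known from leukocytes, held 71 and 66 against 93 and 86 reads, with a log2 fold change of 0.33 and a 95% interval of -0.22 to 0.87. PIK3CA made up 15.9% and 25.3% of the summed FPKM of the 3 isoforms in control and 29.0% and 32.0% in NRP-1 libraries, and PIK3CB 71.9% and 65.4% against 60.5% and 56.8%. The shares of both isoforms were separate between the groups. The shares are given as a description, with no test.

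The regulatory subunits, which hold the catalytic subunit and dock on phosphotyrosines, did not share a direction. PIK3R1, which encodes the alpha regulatory subunit, held 1015 and 926 reads in control and 624 and 711 in NRP-1 libraries. Both NRP-1 libraries were lower, at 12.7 ± 0.948 FPKM against 18.9 ± 1.56 FPKM (SD, n = 2 each). The log2 fold change was -0.60, with a standard error of 0.13 and a 95% interval of -0.93 to -0.27 (edgeR adjusted p = 0.0803, DESeq2 adjusted p = 0.0501). PIK3R2 was at 652 and 771 reads in control and 782 and 1040 in NRP-1 libraries, and PIK3R3 at 1941 and 1984 against 2373 and 1990. For neither were the groups separate once scaled for depth, and their log2 fold changes were 0.30 and 0.09. PIK3R3 had the largest share of the 3 in every library, from 48.5% to 58.5% of their summed FPKM. The share of PIK3R1 was 24.7% and 21.5% in control and 14.2% and 15.6% in NRP-1 libraries. The summed level of the 3 genes was 81.1 and 82.7 FPKM in control and 85.0 and 85.7 FPKM in NRP-1 libraries.

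Of the class II and III enzymes, which make other phosphoinositides for membrane traffic and autophagy, PIK3C2B was higher in both NRP-1 libraries, with 297 and 317 reads in control and 419 and 482 in NRP-1. Its log2 fold change was 0.49 with a standard error of 0.15 (edgeR adjusted p = 0.126). PIK3C2A, the most abundant of these genes, held 862 and 877 against 1127 and 927 reads, with a log2 fold change of 0.18. The class III kinase PIK3C3 and its partner PIK3R4 had log2 fold changes of -0.40 and 0.06, and the intervals of both included 0 (-0.80 to 0.01 and -0.27 to 0.39).

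All 4 phosphatase genes were separate between the groups, 2 higher and 2 lower, where 27.9% of all genes were separate and higher and 28.3% separate and lower. PHLPP2, one of a pair of phosphatases that dephosphorylate AKT directly, held 288 and 250 reads in control and 527 and 429 in NRP-1 libraries. It was higher in both, with a log2 fold change of 0.77, a standard error of 0.17 and a 95% interval of 0.35 to 1.19 (edgeR adjusted p = 0.0801). PHLPP1, the other of the pair, held 354 and 408 against 283 and 341 reads, a log2 fold change of -0.35 with an interval of -0.75 to 0.05. PHLPP1 was 60.3% and 66.9% of the summed FPKM of the pair in control and 39.9% and 49.6% in NRP-1 libraries. The more abundant of the pair thus was PHLPP1 in both control libraries and PHLPP2 in both NRP-1 libraries, while their sum was 11 and 11.3 FPKM against 13.1 and 12.6 FPKM. INPP5D, a lipid phosphatase best known from blood cells, was near the bottom of the range, with 81 and 63 reads in control and 35 and 28 in NRP-1 libraries. Its log2 fold change was -1.25 with a standard error of 0.30 (edgeR adjusted p = 0.0873). INPP4B, a lipid phosphatase that acts on a product of PI3K signalling, held 347 and 389 against 507 and 483 reads, a log2 fold change of 0.37 with a standard error of 0.14 (edgeR adjusted p = 0.184).

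All 5 genes of the AKT, PDK1 and GSK3 kinases had positive log2 fold changes (all genes 51.8%). Of them, 3 were separate between the groups and higher (all genes 27.9%). AKT1 held 4909 and 5217 reads in control and 7397 and 9208 in NRP-1 libraries. Both NRP-1 libraries were higher, and AKT1 was the most abundant of the 38 genes in every library, at 213 ± 7.70 FPKM in control and 345 ± 51.8 FPKM in NRP-1 cells (SD, n = 2 each). The difference was 1.57-fold, a log2 fold change of 0.65 with a standard error of 0.15 and a 95% interval of 0.28 to 1.03 (edgeR adjusted p = 0.0823). AKT2 held 1789 and 1877 reads in control and 1778 and 2158 in NRP-1 libraries, and its log2 fold change was 0.04 with an interval of -0.30 to 0.38. AKT1 therefore took 83.7% and 83.8% of the summed FPKM of the pair in control and 88.6% and 88.9% in NRP-1 libraries, a difference between the means of 4.99 percentage points against SDs of 0.0933 and 0.199. Counted in reads rather than per length, the difference was 7.40 points. GSK3A, one of a pair of kinases that AKT inhibits, held 757 and 791 against 993 and 1157 reads, a log2 fold change of 0.41 with a standard error of 0.13 (edgeR adjusted p = 0.144). Its partner GSK3B held 1647 and 1656 against 1917 and 1607 reads, which overlapped. PDPK1 held 890 and 997 against 1289 and 1079 reads, with a log2 fold change of 0.27 and an interval of -0.08 to 0.62.

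**Figure D2:**
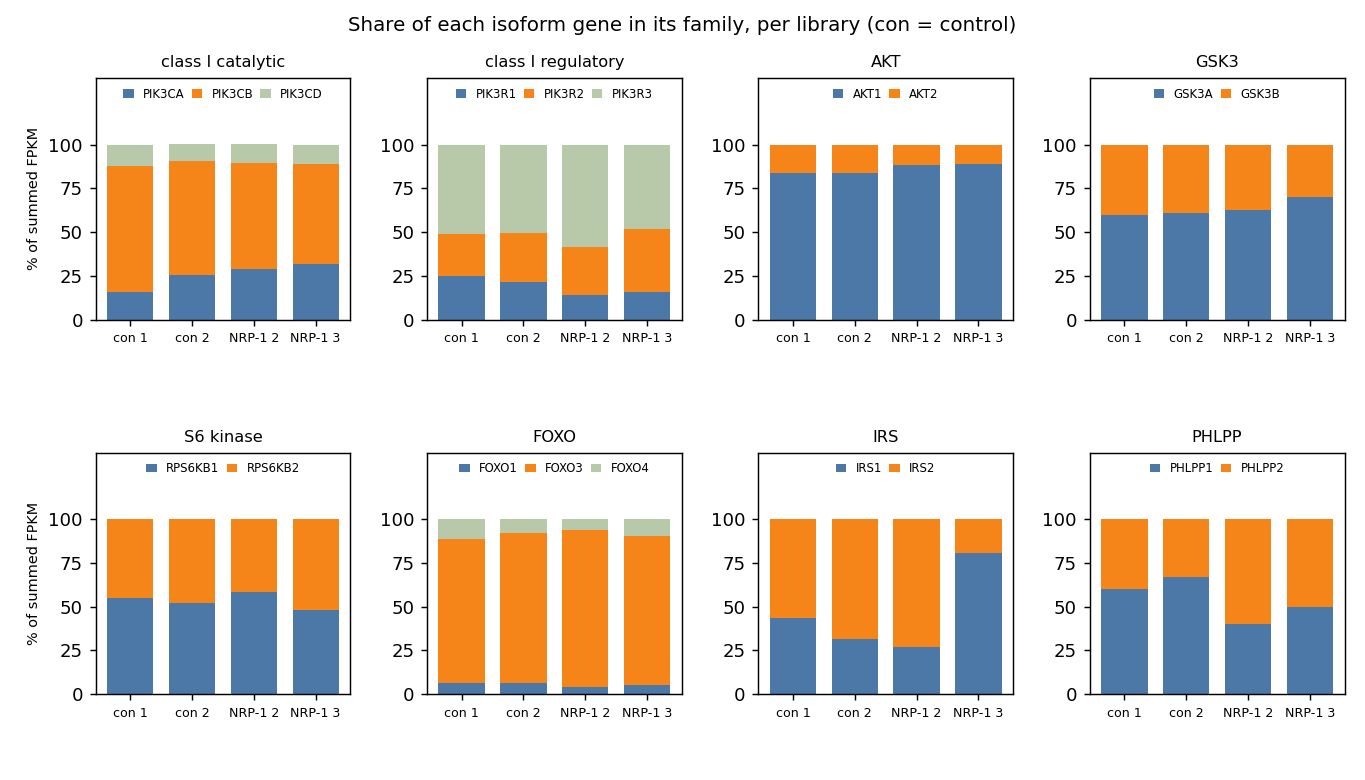
Share of each isoform in the summed FPKM of its family, in percent, stacked for each of the 4 libraries. AKT1 is at 83.7% or more in every library and 4.99 points higher in the NRP-1 mean, the PHLPP pair changes places, and the IRS shares of the 2 NRP-1 libraries (27.1% and 80.7% IRS1) are far apart.

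Of the mTOR complex genes, DEPTOR, whose product binds mTOR and inhibits both complexes, had the lowest unadjusted and adjusted p of the 38. It held 1159 and 1038 reads in control and 299 and 501 in NRP-1 libraries. Both NRP-1 libraries were far below both controls, and they differed from each other by a log2 ratio of 0.74. The level was 50.3 ± 4.18 FPKM in control and 18.0 ± 6.34 FPKM in NRP-1 cells (SD, n = 2 each), a 2.86-fold difference. The log2 fold change was -1.52 with a standard error of 0.25 and a 95% interval of -2.13 to -0.91 (edgeR adjusted p = 0.0559). The kinase MTOR held 620 and 711 reads in control and 763 and 915 in NRP-1 libraries, and its log2 fold change was 0.28 with an interval of -0.09 to 0.64. The mTORC1 subunit RPTOR, the mTOR complex 2 subunit RICTOR and MLST8, which belongs to both complexes, had log2 fold changes of 0.10, 0.08 and 0.11, and their groups overlapped.

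No gene of the TSC complex and RHEB or of the S6 kinase and 4E-BP arm reached an unadjusted p below 0.05. RHEB, the GTPase that activates mTORC1, was the most abundant of its role and held 953 and 899 reads in control and 815 and 808 in NRP-1 libraries. It was lower in both NRP-1 libraries, by a log2 fold change of -0.25 with an interval of -0.54 to 0.04. TSC1 and TSC2, the complex that inhibits RHEB, had log2 fold changes of 0.11 and -0.10. EIF4EBP1, which encodes the translation repressor 4E-BP1, held 500 and 516 reads against 380 and 467, a log2 fold change of -0.32 with an interval of -0.69 to 0.05. RPS6KB1, the main S6 kinase gene, held 2437 and 2351 against 3006 and 2937 reads, a log2 fold change of 0.25 with an interval of -0.03 to 0.54. RPS6KB2, the other S6 kinase gene, and EIF4E, the cap-binding factor that 4E-BP1 blocks, had log2 fold changes of 0.28 and 0.15. The 95% intervals of these 7 genes lay within -0.69 and 0.77.

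All 3 FOXO genes, whose products are transcription factors kept out of the nucleus by AKT, were lower in both NRP-1 libraries (all genes 28.3%). Each had an unadjusted p below 0.05 in edgeR, where 12.1% of all genes were lower, and an adjusted p above it. FOXO3 held 1922 and 1995 reads in control and 1578 and 1154 in NRP-1 libraries, and its log2 fold change was -0.58 with a standard error of 0.17 (edgeR adjusted p = 0.129). FOXO1 held 112 and 114 against 60 and 54 reads, a log2 fold change of -1.04 with a standard error of 0.22 (edgeR adjusted p = 0.0746). FOXO4 held 118 and 86 against 50 and 58 reads, a log2 fold change of -0.98 with a standard error of 0.27 (edgeR adjusted p = 0.111). FOXO3 was the main FOXO transcript in every library, between 82.7% and 89.5% of the summed FPKM of the 3 genes. This sum was 38 and 37.9 FPKM in control and 28.4 and 21.6 FPKM in NRP-1 libraries. Reads of FOXO3 may be shared with its near-identical copy FOXO3B, which was listed with 53 and 89 reads in control and 33 and 65 in NRP-1 libraries, and the call on FOXO3 was the same when both were summed. As in all bulk measurements, fewer cells with a transcript and less of it per cell cannot be told apart.

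**Figure D3:**
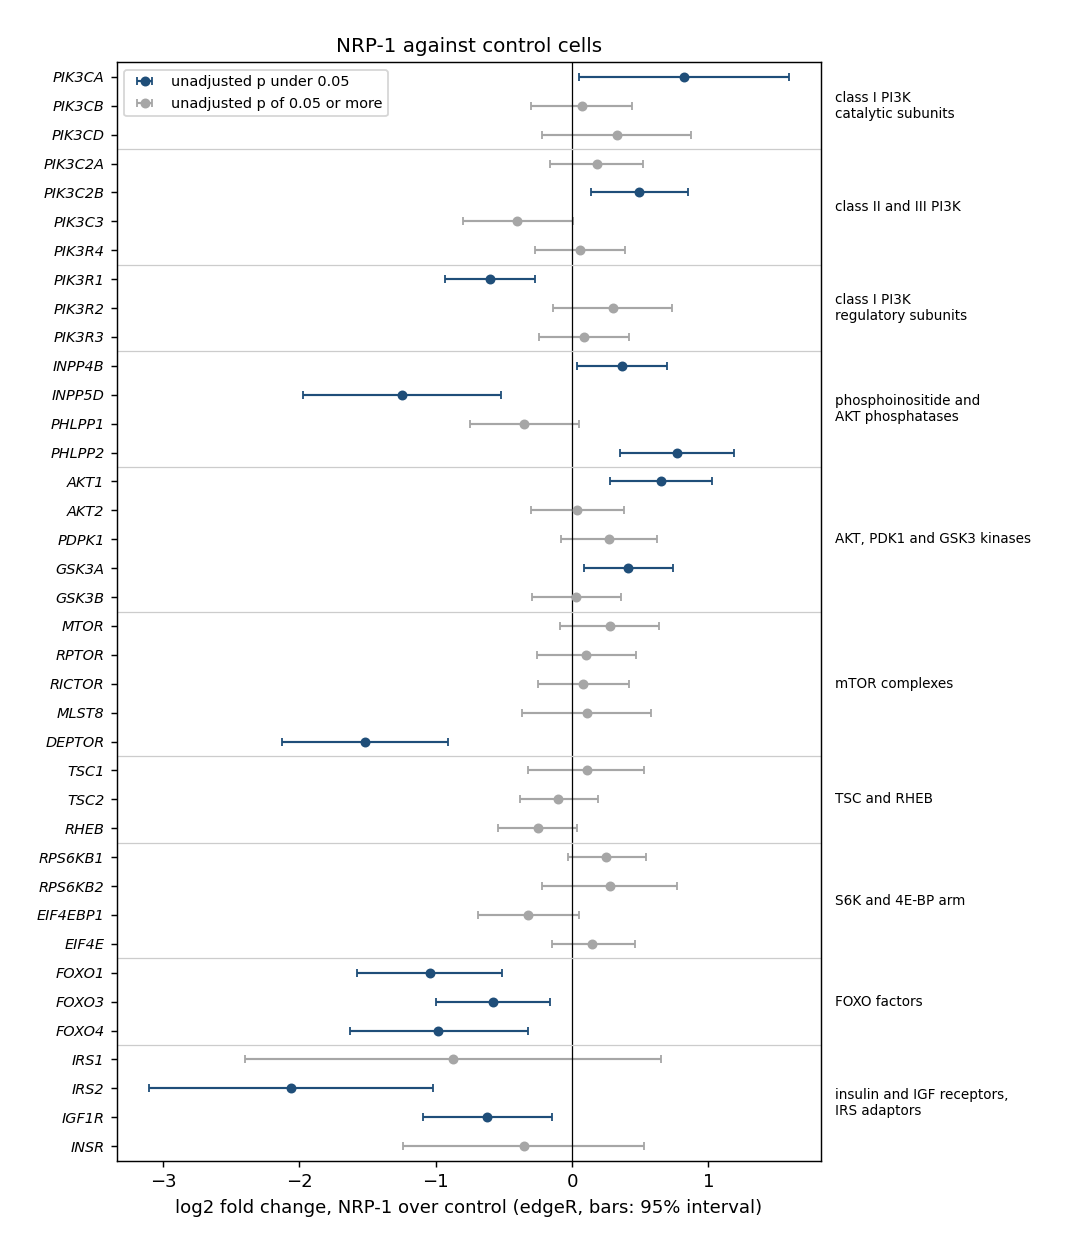
Log2 fold change of each of the 38 genes in NRP-1 over control cells from edgeR, with 95% intervals, grouped by role. Points in dark blue have an unadjusted p below 0.05 (14 genes) and points in grey do not, and no gene passed an adjusted p of 0.05. All 3 FOXO genes and all 4 insulin and IGF receptor and IRS genes lie left of 0, and all 5 AKT, PDK1 and GSK3 genes right of it.

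Ordered by FPKM, a scale that allows comparison between genes, AKT1 stood apart at the top, since its lowest library (207.67 FPKM) exceeded every other value. EIF4EBP1, RPS6KB1, RPS6KB2 and GSK3A followed by their mean over the libraries, and their values, from 41.72 to 72.64 FPKM, overlapped between neighbours in that order. The mTOR kinase and its partners RPTOR and RICTOR lay between 5.84 and 12.26 FPKM. PIK3CD, FOXO1, IRS2, INPP5D and IRS1 closed the order, with no library above 2.43 FPKM, and these neighbours overlapped as well. By the group means, DEPTOR took place 5 in control and place 16 in NRP-1 cells. Transcript lengths used for FPKM differed between libraries for 17 of the 38 genes, by at most 4.94% of the mean length (MLST8).

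**Figure D4:**
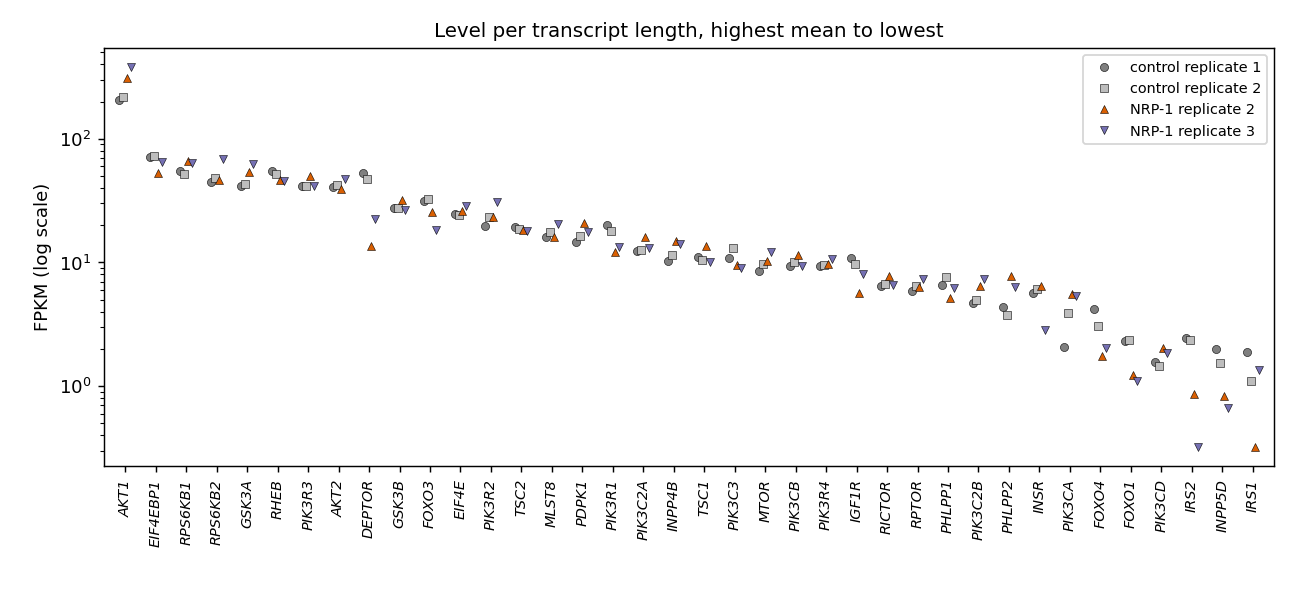
FPKM of the 38 genes in each library on a log10 axis, ordered by the mean over the 4 libraries. AKT1 is highest in every library (207.67 to 381.39 FPKM), and the NRP-1 points of DEPTOR (13.52 and 22.49 FPKM) lie below its control points (53.26 and 47.35 FPKM).

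Beyond these genes, 146 others of the pathway were grouped into 9 lists, and 131 of them passed the filter. edgeR called 5 of the 131 at an adjusted p below 0.05, FGFR4 higher and SESN2, SLC3A2, EEF2 and BCL6 lower, where 1.09% of all genes were called. An unadjusted p below 0.05 was reached by 40 of them (30.5%, all genes 22.9%), and DESeq2 called 19 (all genes 6.36%). None of the 5 calls was made without the filter on low counts, by limma, or with either control library left out, while 65 and 51 of these genes were called without NRP-1 replicate 2 and replicate 3, in the fits with a lone NRP-1 library that called 36.8% and 28.2% of all genes.

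Among 5 tested stress-induced inhibitors of AKT and mTORC1, 3 log2 fold changes were negative and 2 positive, with a median of -0.57. SESN2 fell. The positive ones were those of SESN1 (0.08, groups overlapping) and SESN3 (0.70, both NRP-1 libraries higher, at no more than 21 reads in any library). SESN2, which encodes a leucine sensor that restrains mTORC1, held 698 and 749 reads in control and 166 and 284 in NRP-1 libraries, and its log2 fold change was -1.74 with a standard error of 0.26 (edgeR adjusted p = 0.0483). DDIT4, which activates the TSC complex under stress, held 3170 and 3050 against 1605 and 980 reads, with a log2 fold change of -1.33 (edgeR adjusted p = 0.0627). Both were lower in each NRP-1 library than in either control. Among 10 amino acid transporters, with a median of -0.33, SLC3A2 fell. SLC3A2, the heavy chain shared by several amino acid exchangers, held 4466 and 4540 against 1850 and 1967 reads, a log2 fold change of -1.30 with a standard error of 0.12 (edgeR adjusted p = 0.0345). SLC36A4, a member of the SLC36 family, held 61 and 83 against 178 and 154 reads, a log2 fold change of 1.15 (edgeR adjusted p = 0.0728).

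Of 19 tested genes downstream of mTORC1, 11 reached an unadjusted p below 0.05, 6 higher and 5 lower (all genes 22.9%, 10.8% higher and 12.1% lower), with a median log2 fold change of 0.15. EEF2, the translation elongation factor, was the one that passed the adjustment. It held 28137 and 25412 reads in control and 12755 and 13852 in NRP-1 libraries, and fell by 1.07 on the log2 scale with a standard error of 0.14 (edgeR adjusted p = 0.0442). EIF4B, an initiation factor phosphorylated by S6 kinase, held 5460 and 5141 against 3245 and 2954 reads, a log2 fold change of -0.83 (edgeR adjusted p = 0.0516). Of 17 FOXO target genes, 12 had negative log2 fold changes (51.8% of all genes had positive ones), and the median of the 17 was -0.23. Both NRP-1 libraries lay below both controls for 9 of the 17 (52.9%, all genes 28.3%). They lay above for 2 (11.8%, all genes 27.9%), and the groups overlapped for 6. An unadjusted p below 0.05 was reached by 6 of the 17, 5 lower and 1 (TXNIP) higher, against 12.1% and 10.8% of all genes. BCL6, a transcriptional repressor, held 405 and 427 against 203 and 202 reads and fell by 1.10 on the log2 scale with a standard error of 0.14 (edgeR adjusted p = 0.044). TXNIP, which binds thioredoxin and limits glucose uptake, held 183 and 165 reads in control and 692 and 2640 in NRP-1 libraries, and its log2 fold change was 3.20 with a standard error of 0.62 (edgeR adjusted p = 0.068). The other 4 with an unadjusted p below 0.05, named after their values were seen, had log2 fold changes of -1.88 (PDK4), -1.30 (GADD45A), -1.23 (FBXO32) and -0.70 (RBL2), with adjusted p between 0.0728 and 0.173 in edgeR.

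Of 20 tested receptors and adaptors that recruit PI3K, with a median log2 fold change of 0.11, FGFR4 rose. This fibroblast growth factor receptor held 230 and 331 reads in control and 767 and 994 in NRP-1 libraries, and its log2 fold change was 1.59 with a standard error of 0.22 (edgeR adjusted p = 0.0452). CBL, a ubiquitin ligase that turns over receptors, held 197 and 218 against 355 and 414 reads, with a log2 fold change of 0.83 (edgeR adjusted p = 0.068). No gene was called among 7 other mTOR complex subunits and assembly factors (median 0.21), 26 genes of lysosomal amino acid sensing (0.05), 17 other PI3K, AKT and SGK genes (0.10) and 10 subunits of PP2A phosphatase (0.25). Unadjusted p-values below 0.05 numbered 2, 3, 4 and 2 in these lists, shares of 28.6%, 11.5%, 23.5% and 20% against 22.9% of all genes, and DESeq2 called 1, 1, 0 and 0. AKT1S1, another inhibitory mTORC1 subunit, held 280 and 297 against 465 and 591 reads (log2 fold change 0.81, edgeR adjusted p = 0.0728), and PRR5 of mTOR complex 2 held 165 and 164 against 208 and 271 (0.48, edgeR adjusted p = 0.215). AKT1S1 was thus higher and DEPTOR lower in both NRP-1 libraries. RRAGD, a GTPase that recruits mTORC1 to lysosomes, held 290 and 197 against 108 and 47 reads (log2 fold change -1.71, edgeR adjusted p = 0.0894), and FNIP2 held 187 and 151 against 293 and 285 (0.71, edgeR adjusted p = 0.0966). PIP4K2B, a phosphoinositide kinase, held 6064 and 6716 against 9092 and 9386 reads (0.47, edgeR adjusted p = 0.107). The scaffold subunits of PP2A, PPP2R1A and PPP2R1B, had log2 fold changes of 0.33 and 0.49 (edgeR adjusted p = 0.178 and 0.155).

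**Figure D5:**
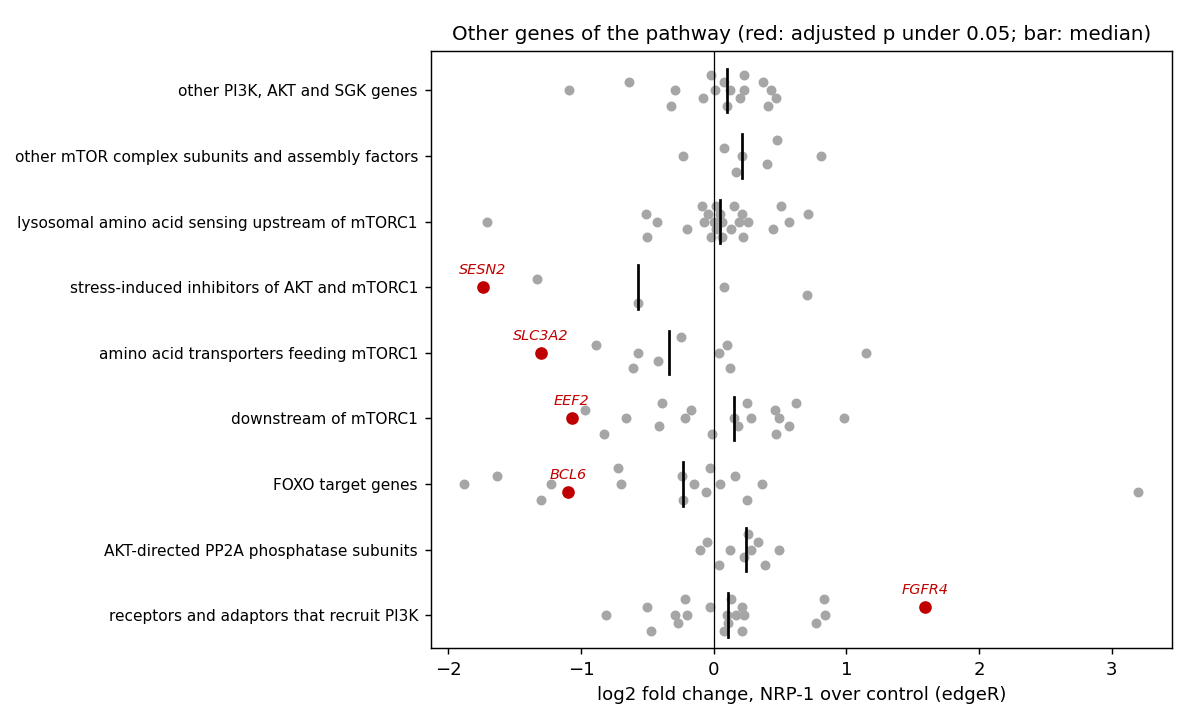
Log2 fold changes in NRP-1 over control cells (edgeR) of 131 tested genes in 9 lists of the pathway, 1 point per gene, with a bar at the median of each list. The 5 genes in red passed an adjusted p of 0.05, FGFR4 at 1.59 and SESN2, SLC3A2, EEF2 and BCL6 between -1.74 and -1.07.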

How the data were processed

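Per the labels, RNA was extracted with Trizol and poly(A)-selected, and tools named in the submitters' processing notes were bcl2fastq 2.16, HISAT2 2.0.1, Bowtie2 2.2.5 and RSEM. GRCh38 and hg19 are both named, with no role given, so no coordinates of the files' genes were used. The authors deposited, per library, expected counts that are not normalized (32.8% of values above 0 were not whole), FPKM, normalized by length and depth, and a transcript length per gene. A table of the authors' own comparison, with group means, ratios and a score, was not used.

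Gene identifiers were matched to RefSeq symbols (99.4%), and promoter windows came from RefSeq. Expected counts were rounded, filtered with filterByExpr, scaled by TMM and tested by edgeR 4.0.16 (quasi-likelihood test, Benjamini-Hochberg adjustment over all 14298 genes, threshold 0.05) in R 4.3.3. The fit held all 4 libraries and no covariate. For each gene it assumed the same spread in both groups, although the biological coefficient of variation was 0.0641 in control and 0.225 in NRP-1. CPM were computed from the rounded counts with TMM. The alternatives were DESeq2 1.42.0, no TMM, no filter, limma 3.58.1 on log2(FPKM + 1) or log2(FPKM + 0.1) with a mean FPKM of at least 0.5 or no minimum, summed copies and leaving out each library. Standard errors were back-calculated as the absolute log2 fold change over the square root of the F statistic of the edgeR test. The 95% intervals were built from these with a t quantile. Intervals and p-values rest on 2 libraries per group. In counts simulated from these libraries, edgeR recovered 95% of 200 genes given a log2 change of 2 (14251 genes tested) and made 12 false calls. The changed genes were drawn from those above a minimum mean count. For each gene the simulation gave both groups the same spread, which these libraries did not have, so the 95% may not carry over to them. Recovery of smaller changes was not tested, so the 95% does not apply to them. Among the pathway component genes, IRS2 alone reached this size (log2 fold change -2.06), and it was not called (edgeR adjusted p = 0.0745). The next largest change was that of DEPTOR (-1.52).

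All 38 genes are named. Reads per library are given for those with an unadjusted p below 0.05 and for the most abundant of each of the 10 roles, and in the lists for called genes and the 2 with the lowest p. A gene that this rule would name is not reported here. The genes and lists were chosen with earlier results of these data known.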

Additional observations from a re-analysis of the deposited data

How the results depend on the processing

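No paired analysis was run, because the labels name no pairs and the groups share only replicate number 2. The paper lists a separate fold change for each of 2 replicates. Whether the libraries compared there were paired by culture was not given. Of all genes, edgeR called 156, DESeq2 896, limma 7 (pseudocount 1), 3 (pseudocount 0.1) and 0 (no filter, with 3463 genes at an unadjusted p below 0.05), and edgeR with no filter 0 (3297 at an unadjusted p below 0.05). Leaving out 1 library gave 0 to 5414. Calls among the 38 genes went from 0 to 4 with DESeq2 and from 0 to 21 on leaving out 1 library, and among the lists from 5 to 19 with DESeq2, to 0 with no filter and in all 3 limma fits, and from 0 to 65 on leaving out 1 library. The 14 genes called both without NRP-1 replicate 2 and without replicate 3 were the same 14 with an unadjusted p below 0.05 in all libraries. The median of the 38 log2 fold changes, 0.08, was 0.11 without TMM, and -0.05 to 0.09 on leaving out 1 library.

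With the other settings, 225 of the 229 log2 fold changes of single genes kept direction and side of the threshold and the other 4 (DESeq2) passed it. On leaving out 1 library, 10 of 152 turned sign: PIK3CB (-0.09 to 0.21), PIK3R4 (-0.01 to 0.13), PIK3R3 (-0.05 to 0.22), AKT2 (-0.10 to 0.17), GSK3B (-0.11 to 0.16), RICTOR (-0.04 to 0.19), MLST8 (-0.12 to 0.30), TSC1 (-0.13 to 0.31), RPS6KB2 (-0.03 to 0.52) and INSR (-1.08 to 0.12), each only without NRP-1 replicate 2 or 3. The cause was not tested.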

Other observations

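Cytosolic ribosomal protein genes, a list chosen after their values were seen, were lower in NRP-1 cells for 75 of the 76 tested, with a median log2 fold change of -0.58 against 0.02 over all genes. RPS26 was the exception. Both NRP-1 libraries lay below both controls for 69 of the 76 (90.8%, all genes 28.3%), and 64 were lower at an unadjusted p below 0.05 (all genes 12.1%). edgeR called 5 lower at an adjusted p below 0.05 (RPL9, RPL13A, RPL17, RPL26 and RPL31), where 0.678% of all genes were. DESeq2 called 39, where 6.36% of all genes were called in either direction. RPL26 held 4083 and 3639 reads in control and 1773 and 2004 in NRP-1 libraries, and its log2 fold change was -1.09 (edgeR adjusted p = 0.044). Leaving out NRP-1 replicate 2 or 3 gave a median of -0.48 or -0.66, with 71 and 75 genes negative. The median was -0.45 and -0.66 without control replicates 1 and 2. limma and edgeR with no filter called none, with 51 to 63 lower at an unadjusted p below 0.05. Many of these genes have near-identical pseudogenes with which reads may be shared, so single values are uncertain.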
